A study of Mus musculus with 2 samples.

Results

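The group described here holds 10 mouse genes of the Notch pathway and of the periportal liver endothelium, chosen by name from the deposited gene list: Dll4, Jag1, Notch1, Notch4, Hes1, Hey1, Sox9, Efnb2, Ntn4 and Ltbp4. They are 10 of the 34244 genes in that list, and all 10 had at least 1 unique molecular identifier (UMI, a tag that marks a single captured transcript) in the cells kept. The study sequenced single cells from the livers of 2 C57/BL6 mice, with 1 library per group. The PCB126 mouse received PCB126, a polychlorinated biphenyl of the dioxin-like kind and a strong agonist of the aryl hydrocarbon receptor (AHR), at 20 µg/kg/day, and the Control mouse received peanut oil. For both mice the labels give an exposure of 5 weeks, a fast of 12 hours before collection and an age of postnatal day 21, without saying to which time point the age belongs. The protocol describes a single gavage while the dose is stated per day, and the Control mouse is labelled untreated while its protocol names peanut oil. Mouse and treatment cannot be told apart in this design, no test between the groups was possible, and every interval below covers counting error only.

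Notch signalling works between touching cells: ligands of the Delta-like and Jagged families on one cell activate Notch receptors on the next, and the cleaved receptor joins the DNA-binding protein RBPJ to switch on Hes and Hey repressor genes. In the liver, arterial and portal endothelium is known for Dll4, Jag1 and ephrin-B2, the sinusoidal lining changes its gene expression between the portal and the central end of the lobule, and Jag1 signalling to biliary cells is needed to build bile ducts. Sox9 is a transcription factor that marks the biliary lineage.

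Per the labels' protocols hepatocytes were depleted by spins and red cells lysed before loading. After filtering, 1138 cells with a median of 6567 UMIs were kept from the PCB126 library and 1858 cells with a median of 5252.5 UMIs from the Control library, and the libraries shared 3 cell barcodes. Cells were sorted into classes by summed marker UMIs, and no member of the group was a marker. The PCB126 library gave 29 arterial and portal endothelial-like cells, 517 liver sinusoidal endothelial (LSEC)-like cells, 82 central vein endothelial-like cells and 85 cholangiocyte-like cells. The Control library gave 25 arterial and portal, 197 LSEC-like, 67 central vein and 66 cholangiocyte-like cells. By the pericentral share of their zonal marker UMIs, the LSEC-like cells were 141 periportal-side, 206 intermediate and 170 pericentral in the PCB126 library, against 95, 64 and 38 in the Control library. Of these, 202 cells of the PCB126 library and 57 of the Control library lay within 0.1 of a zone limit. All 12 LSEC markers and all 12 cholangiocyte markers were found in at least 10% of the cells of their class in both libraries, as were 11 of the 12 arterial and portal markers. Median depth per class ran from 4639 to 15849 UMIs in the PCB126 library and from 5219 to 12074.5 UMIs in the Control library. The 4 haemoglobin transcripts used as red cell markers summed to 0.402 to 13.2 UMIs per 10000 over these 7 classes of the PCB126 library and to 17.3 to 127 in the Control library. Median mitochondrial shares of the classes were 8.05% to 15.3% in the PCB126 library, against 6.51% to 12.1% in the Control library.

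Promoter sequences are shown for 3 members whose levels the account turns on, taken from RefSeq for GRCm38.p6 as the 250 bases before the annotated start, which outside the capitals are printed in lower case. They are Ntn4 (chr10:93640799-93641048, plus strand, a start inside the longer gene model), Ltbp4 (chr7:27333664-27333913, minus strand, also a start inside the longer gene model) and Dll4 (chr2:119325534-119325783, plus strand). Capitals mark the core of the element that AHR is known to bind, GCGTG or its reverse complement CACGC.
Ntn4: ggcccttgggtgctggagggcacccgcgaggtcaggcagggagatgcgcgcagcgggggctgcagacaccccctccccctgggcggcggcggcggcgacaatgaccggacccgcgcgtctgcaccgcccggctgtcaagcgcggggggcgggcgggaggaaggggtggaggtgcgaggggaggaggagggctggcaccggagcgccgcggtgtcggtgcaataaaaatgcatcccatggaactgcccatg
Ltbp4: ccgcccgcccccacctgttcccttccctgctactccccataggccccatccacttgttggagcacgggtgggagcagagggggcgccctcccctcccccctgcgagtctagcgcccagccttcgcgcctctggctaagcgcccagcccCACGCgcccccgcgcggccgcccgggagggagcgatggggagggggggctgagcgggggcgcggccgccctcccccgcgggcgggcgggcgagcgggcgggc
Dll4: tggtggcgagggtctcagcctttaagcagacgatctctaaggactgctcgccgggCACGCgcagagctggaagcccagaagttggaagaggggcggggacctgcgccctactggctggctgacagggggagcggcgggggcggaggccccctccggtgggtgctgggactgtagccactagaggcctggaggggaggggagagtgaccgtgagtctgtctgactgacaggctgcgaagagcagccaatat
The core lay 102 bases before this Ltbp4 start and 195 bases before the Dll4 start, in both on the opposite strand, and the Ntn4 window held none. The Ltbp4 window at chr7:27337613-27337862, which spans the start of its longer gene model, also held none. The bases before the start of the longer Ntn4 model were not searched. Of the 10 members, 7 had a window, with 9 windows in all, and the core was found in 5 windows of 4 members: Ltbp4, Dll4, Jag1 and Notch4. A pair of the Ltbp4 windows overlap and share 1 core, which is counted in both. Over all 32851 RefSeq windows of the same length 28.2% held it. The RBPJ core TGGGAA, searched on both strands, was in 0 of the 9 windows, against 21.6% of all windows. These matches describe letters within short windows, and the positions of neither factor were measured. Windows of Hes1, Hey1 and Sox9 are not shown.

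A member was counted as higher or lower in a class when it had at least 20 UMIs over both libraries and its ratio of CPM (UMIs scaled to the same total in each class and library) passed 1.5-fold. In arterial and portal endothelial-like cells 0 of the 7 members with enough UMIs were higher and 2 were lower in the PCB126 library, where 10.9% of all genes were higher and 21.1% lower. In LSEC-like cells 0 of 8 were higher and 3 lower, against 13.4% and 12.1% of all genes. Within the zones, periportal-side cells had 0 higher and 1 lower of 8 (all genes 18.7% and 12.2%), intermediate cells 4 higher and 1 lower of 8 (19.0% and 13.0%), and pericentral cells 1 higher and 3 lower of 8 (14.4% and 18.9%). Central vein endothelial-like cells had 1 higher and 2 lower of 6 (9.62% and 14.6%), and cholangiocyte-like cells 3 higher and 1 lower of 7 (9.75% and 6.83%). The median log2 ratio of the members was -0.39 in arterial and portal cells, -0.18 in LSEC-like cells, -0.34 in central vein cells and 0.04 in cholangiocyte-like cells, where the medians of all genes with 20 UMIs were -0.11, 0.02, -0.06 and 0.08. The members did not move as a group: ratios lay on both sides of 1 in every class.

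**Figure D1:**
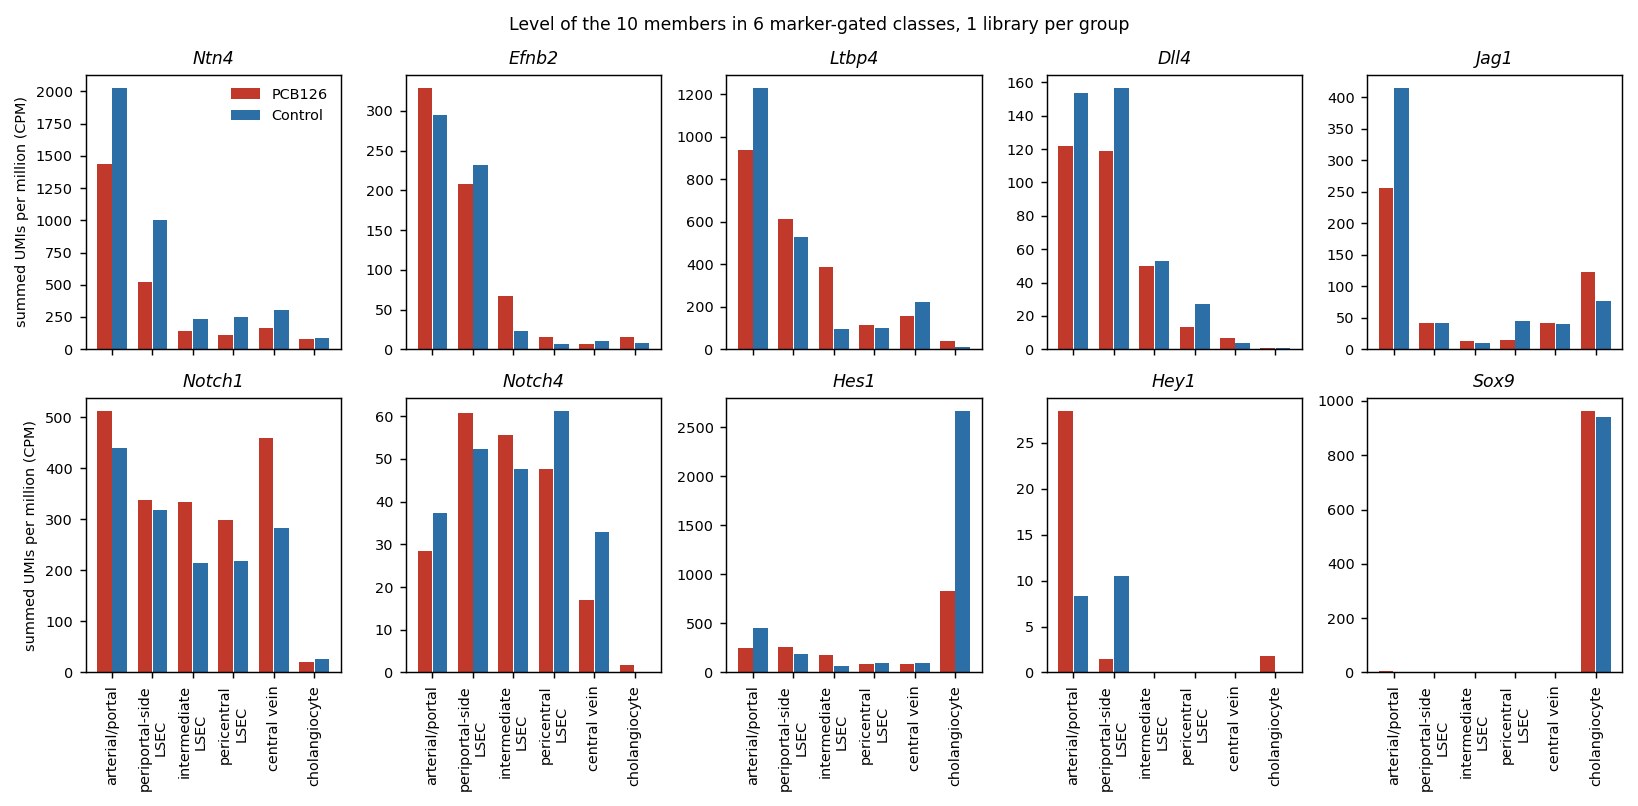
CPM of the class sum (y axis, linear from 0) of the 10 members in 6 marker-gated classes (x axis), with PCB126 bars left of Control bars and 1 library per group. Ntn4 is lower in the PCB126 library in each endothelial class, at 1436 CPM against 2029 CPM in the Control library in arterial and portal cells, Hes1 in cholangiocyte-like cells stands at 828 CPM in the PCB126 library against 2666 CPM in the Control library, and Sox9 at 964 CPM in the PCB126 library against 940 CPM in the Control library.

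Dll4 (ENSMUSG00000027314, chromosome 2, 119325784 to 119335962, GRCm38), the Delta-like ligand of arterial endothelium, was a gene of the portal side in both libraries. Its level was 122 CPM in arterial and portal cells, 119 CPM in periportal-side, 49.8 CPM in intermediate and 13.3 CPM in pericentral LSEC-like cells, and 6.48 CPM in central vein cells of the PCB126 library. The same classes of the Control library held 154, 157, 52.8, 27.2 and 3.96 CPM. The arterial and portal level and the periportal-side level did not differ beyond counting error in either library, nor did the intermediate and pericentral levels of the Control library. Cholangiocyte-like cells had 1 Dll4 UMI in each library, and leukocyte-like cells 0 in the PCB126 library and 3 in the Control library. The periportal-side level exceeded the pericentral one 8.95-fold in the PCB126 library (95% interval 5.12 to 16.7) and 5.76-fold in the Control library (2.78 to 13.8).

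Between the libraries Dll4 stood at 51.8 CPM in all LSEC-like cells of the PCB126 library (157 UMIs), against 88.9 CPM in those of the Control library (104 UMIs), a ratio of 0.583 (0.452 to 0.755). Within zones the intervals held 1: the ratio was 0.756 (0.546 to 1.05) in periportal-side, 0.944 (0.566 to 1.63) in intermediate and 0.487 (0.194 to 1.33) in pericentral cells. The mean log2 ratio over the 3 zones was -0.53, against -0.78 over all LSEC-like cells, in which periportal-side cells were 141 of 517 in the PCB126 library and 95 of 197 in the Control library. In arterial and portal cells Dll4 had 30 UMIs in the PCB126 library, 37 in the Control library and a ratio of 0.795 (0.474 to 1.32), so that no difference was detectable there at this depth. A UMI of Dll4 was seen in 58.6% of those cells in the PCB126 library and in 52.0% in the Control library.

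Jag1 (ENSMUSG00000027276, chromosome 2, 137081456 to 137116644), the Jagged ligand of arteries and bile ducts, was present in endothelium and in cholangiocyte-like cells. Arterial and portal cells had the highest level, with 256 CPM (63 UMIs) in the PCB126 library and 415 CPM (100 UMIs) in the Control library. The ratio was 0.618 (0.443 to 0.855). A Jag1 UMI was found in 69.0% of these cells in the PCB126 library, against 92.0% in the Control library. Per cell the median was 1.62 Jag1 UMIs per 10000 in the PCB126 library and 3.80 in the Control library, and the 2 distributions overlapped, with highest cells of 8.01 in the PCB126 library and 11.4 in the Control library.

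In cholangiocyte-like cells the difference ran the other way. Jag1 stood at 123 CPM (205 UMIs) in the PCB126 library and 75.8 CPM (94 UMIs) in the Control library, a ratio of 1.62 (1.26 to 2.09). A UMI was seen in 80% of the PCB126 cells and 65.2% of the Control cells. Cholangiocyte-like cells held 55.1% of all Jag1 UMIs of the PCB126 library and 30.1% of those of the Control library. These shares also depend on the cells kept, of which cholangiocyte-like cells were 7.47% in the PCB126 library and 3.55% in the Control library. In pericentral LSEC-like cells Jag1 was 14.1 CPM in the PCB126 library and 44.3 CPM in the Control library, from 16 PCB126 and 13 Control UMIs, of which 76.9% in the Control library came from 5 cells. Periportal-side (PCB126 41.9 and Control 41.8 CPM), intermediate (PCB126 13.3 and Control 10.1 CPM) and central vein cells (PCB126 41.5 and Control 39.6 CPM) gave ratios whose intervals held 1.

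Notch1 (ENSMUSG00000026923, chromosome 2, 26457903 to 26516663) was expressed in every endothelial class, with little zonation. In the PCB126 library its level was 512 CPM in arterial and portal, 338 CPM in periportal-side, 334 CPM in intermediate, 298 CPM in pericentral and 459 CPM in central vein cells. These classes of the Control library held 440, 318, 214, 218 and 284 CPM. Periportal-side over pericentral gave 1.14 (0.958 to 1.35) in the PCB126 library and 1.46 (1.08 to 1.99) in the Control library, far below the gradients of Dll4.

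Notch1 was higher in the PCB126 library in central vein cells, at a ratio of 1.62 (1.36 to 1.93; 354 PCB126 and 215 Control UMIs). In intermediate cells the ratio was 1.57 (1.24 to 2.00), and in pericentral cells 1.37 (1.04 to 1.81). The intermediate value shrank to a log2 ratio of 0.21, from 0.64, when zones were set without Cd36 and Adam23, and to 0.06 in cells thinned to 1000 UMIs, while the central vein value was 0.66 or more under every alternative run. Arterial and portal and periportal-side cells gave 1.17 (0.893 to 1.52) and 1.06 (0.864 to 1.31). Leukocyte-like cells also carried Notch1, at 41.2 CPM in the PCB126 library and 29.1 CPM in the Control library, and cholangiocyte-like cells had 19.7 CPM in the PCB126 library and 25.8 CPM in the Control library. Transcripts annotated on the opposite strand overlap Notch1, Dll4 and Ntn4 in GENCODE M21, and whether the counting used strand is not stated in the labels or file headers.

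Notch4 (ENSMUSG00000015468, chromosome 17, 34564268 to 34588503), a receptor of endothelium, was low and evenly spread. LSEC-like cells held 53.8 CPM (163 UMIs) in the PCB126 library and 53.0 CPM (62 UMIs) in the Control library, a ratio of 1.02 (0.754 to 1.38). Across the 3 zones it lay between 47.7 and 60.7 CPM in the PCB126 library and between 47.8 and 61.3 CPM in the Control library. In central vein cells it was 16.9 CPM (13 UMIs) in the PCB126 library against 33.0 CPM (25 UMIs) in the Control library, and the interval of 0.240 to 1.04 held 1. Cholangiocyte-like cells had 3 UMIs in the PCB126 library and 0 of 66 cells with one in the Control library, which allows a share of up to 4.55%.

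**Figure D2:**
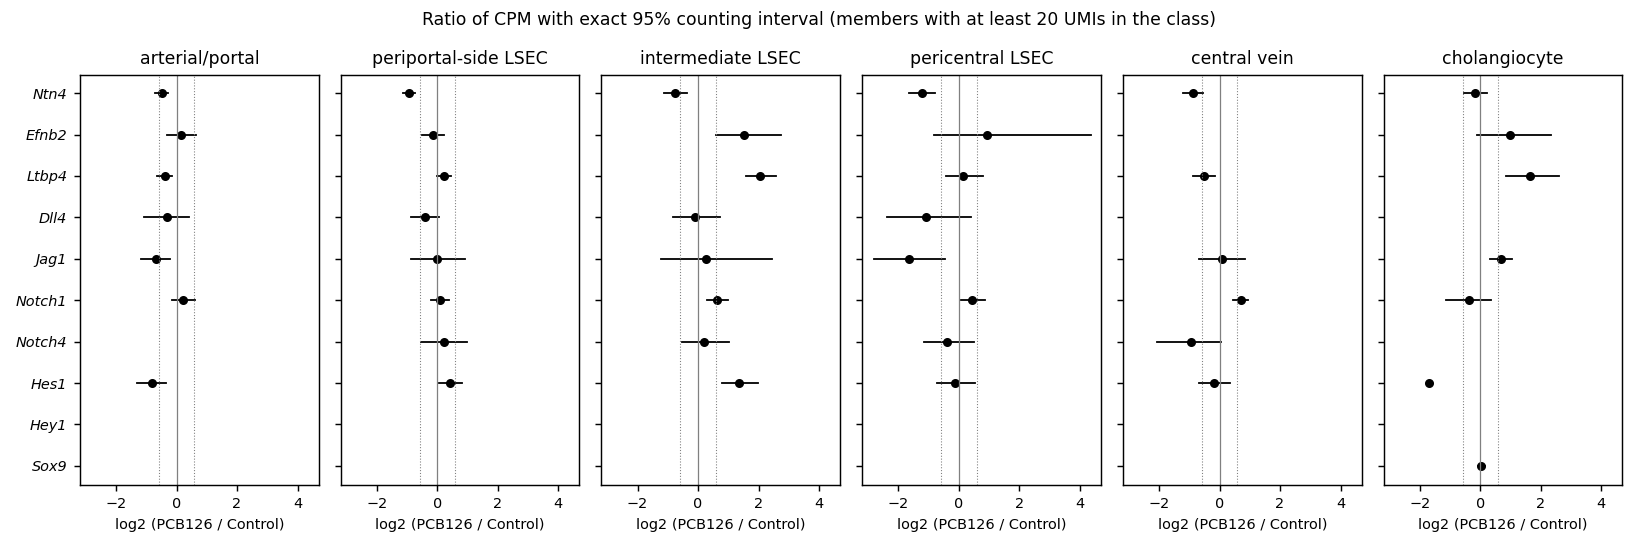
Log2 ratio of CPM, PCB126 over Control (x axis), for each member with at least 20 UMIs in a class (rows), in 6 classes (panels). Points are the ratios with 0.5 counts added, bars are exact 95% counting intervals, and dotted lines mark 1.5-fold. Ntn4 lies left of 0 in all 5 endothelial panels, at -0.50 to -1.22, and Hes1 lies at -1.69 in cholangiocyte-like cells but at 1.34 in intermediate LSEC-like cells.

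Hes1 (ENSMUSG00000022528, chromosome 16, 30064384 to 30067796), the repressor that Notch switches on and that many other stimuli induce as well, was highest in cholangiocyte-like cells of both libraries and lower there in the PCB126 library. It stood at 828 CPM (1385 UMIs) in the PCB126 library and 2666 CPM (3309 UMIs) in the Control library, a ratio of 0.310 (0.291 to 0.331). Per cell, the lowest, median and highest values were 0, 5.63 and 34.9 Hes1 UMIs per 10000 in the PCB126 library. Control values were 0, 18.6 and 105. The 2 sets of cells overlapped, but the third quartile of the PCB126 cells, 9.29, was below the median of the Control cells.

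The 5 cells richest in Hes1 UMIs gave 31.2% of its cholangiocyte-like UMIs in the PCB126 library and 31.5% in the Control library. After thinning every cell to 1000 UMIs, Hes1 was seen in 38 of 85 cholangiocyte-like cells of the PCB126 library (44.7%, 33.9 to 55.9) and in 48 of 66 of the Control library (72.7%, 60.4 to 83.0). Unthinned, the shares were 92.9% in the PCB126 library, at a median depth of 15849 UMIs, and 98.5% in the Control library, at 12074.5 UMIs. In leukocyte-like cells the thinned shares were 0.296% in the PCB126 library, at a median depth of 6796.5 UMIs, and 10.4% in the Control library, at 4604 UMIs. Hes1 stood at 14.0 CPM in the 338 leukocyte-like cells of the PCB126 library and at 242 CPM in the 1325 of the Control library. The make-up of this mixed class differed between the libraries. For example, leukocyte-like clusters of 223 and 181 Control cells held 0 PCB126 cells. Whether Hes1 differed within a leukocyte type was not tested.

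Further measures moved with Hes1 in cholangiocyte-like cells. All 14 genes of an immediate early list (Fos, Fosb, Jun, Junb, Jund, Egr1, Atf3, Ier2, Ier3, Dusp1, Zfp36, Nr4a1, Btg2 and Klf6) had log2 ratios below 0 there. The intervals of Jund (0.971, 0.908 to 1.04) and Ier3 (0.887, 0.700 to 1.13) held 1. Lower past 1.5-fold were 9 of the 14 genes, against 6.83% of all genes with at least 20 UMIs in this class. The list was set after first results of these data were seen, so this count is a description only. The 14 genes summed to 8093 CPM in the PCB126 library and 12930 CPM in the Control library. Their part in the Hes1 difference was not tested. The 8 hepatocyte markers summed to 57.1 UMIs per 10000 in the PCB126 library and 72.1 in the Control library, and in the cells below 60 per 10000, 51 PCB126 and 22 Control cells, the Hes1 log2 ratio was -1.96. Id1, listed among the pathway targets, was also lower, at 210 CPM in the PCB126 library and 446 CPM in the Control library. Jag2 (PCB126 8.97 and Control 13.7 CPM) and Myc (PCB126 26.3 and Control 41.1 CPM) were the other pathway genes lower past 1.5-fold in this class. Of 33 further pathway genes with at least 20 UMIs there, 3 were lower and 2 higher, against 6.83% and 9.75% of all genes. Jag2 rested on 15 PCB126 and 17 Control UMIs. Its ratio of 0.655 had an interval of 0.304 to 1.39, so no difference was detectable for it at this depth.

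**Figure D3:**
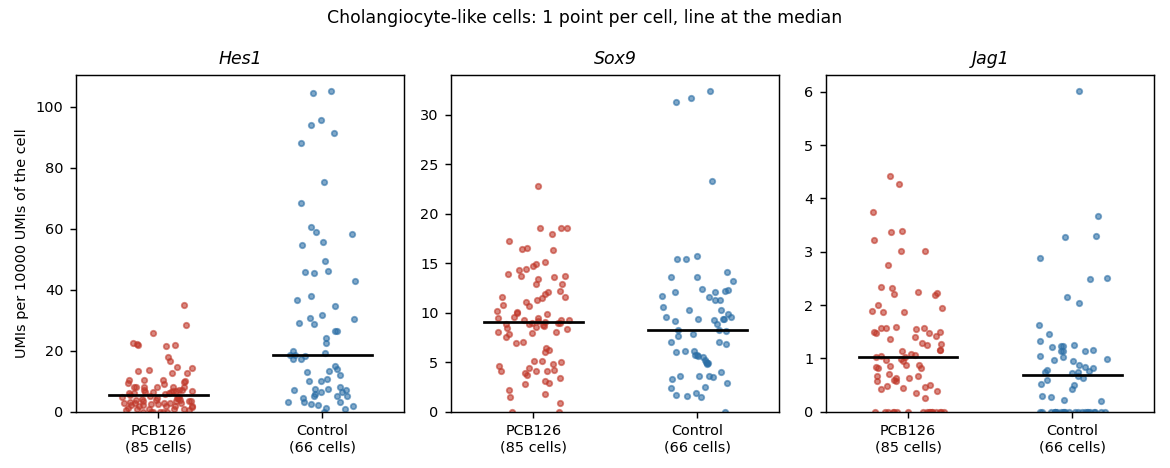
UMIs per 10000 UMIs of the cell (y axis) of Hes1, Sox9 and Jag1 in single cholangiocyte-like cells, 85 in the PCB126 library (left) and 66 in the Control library (right). Each point is a cell, points are spread sideways at random, and the line is the median, which for Hes1 is 5.63 in the PCB126 library and 18.6 in the Control library.

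In endothelium the direction of Hes1 varied between classes. Arterial and portal cells had 252 CPM (62 UMIs) in the PCB126 library and 448 CPM (108 UMIs) in the Control library, a ratio of 0.563 (0.405 to 0.776). The log2 ratio of -0.82 shrank to -0.12 with at most 10% mitochondrial UMIs per cell, to -0.21 in thinned cells and to -0.35 with classes taken from clusters. In the same cells 12 of the 14 immediate early genes were above 0, with a sum of 1871 CPM in the PCB126 library against 983 CPM in the Control library, the opposite of their direction in cholangiocyte-like cells.

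LSEC-like cells had 161 Hes1 CPM in the PCB126 library and 125 CPM in the Control library, a ratio of 1.29 (1.07 to 1.57). By zone the PCB126 library had 254 CPM in periportal-side, 174 CPM in intermediate and 91.0 CPM in pericentral cells, and the Control library 188, 67.9 and 98.7 CPM. The intermediate ratio of 2.57 (1.72 to 3.99) rested on 210 PCB126 and 27 Control UMIs, of which 70.4% in the Control library came from 5 cells. Its log2 ratio of 1.34 was 0.63 with at most 10% mitochondrial UMIs, 0.59 with stricter gates and 0.02 with classes from clusters. Within the LSEC cluster that both libraries filled most evenly (54 PCB126 and 66 Control cells), Hes1 was lower in the PCB126 library, at 77.7 CPM against 416 CPM in the Control library. The LSEC cluster of 323 PCB126 and 17 Control cells went the other way, at 174 CPM in the PCB126 library and 93.8 CPM in the Control library. That ratio of 1.86 (0.998 to 3.92) rested on 10 Control UMIs, and its interval held 1. Central vein cells gave 85.6 CPM in the PCB126 library and 96.3 CPM in the Control library, a ratio of 0.889 (0.627 to 1.26).

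Hey1 (ENSMUSG00000040289, chromosome 3, 8663359 to 8667256), the Hey repressor of arterial endothelium, was too sparse for a comparison, with 13 UMIs in all cells of the PCB126 library and 8 in all cells of the Control library. Arterial and portal cells held 7 of them in the PCB126 library and 2 in the Control library, and periportal-side cells 1 in the PCB126 library and 5 in the Control library. Intermediate, pericentral and central vein cells had none in either library, which for central vein cells allows a share of cells with a UMI of up to 3.66% in the PCB126 library and 4.48% in the Control library.

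Sox9 (ENSMUSG00000000567, chromosome 11, 112782224 to 112787760) was confined almost wholly to cholangiocyte-like cells, which held 97.8% of its 1648 UMIs in the PCB126 library and 99.9% of its 1168 in the Control library. Its level there was 964 CPM in the PCB126 library and 940 CPM in the Control library, and the ratio of 1.02 (0.950 to 1.11) held 1. A UMI was found in 97.6% of the PCB126 cells and 98.5% of the Control cells. The per-cell median was 9.02 per 10000 in the PCB126 library, with a highest cell of 22.8, and 8.25 in the Control library, with a highest cell of 32.4. Its log2 ratio lay between -0.12 and 0.06 under the 14 alternative settings, in the same class in which Hes1 was lower in the PCB126 library.

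Ntn4 (ENSMUSG00000020019, chromosome 10, 93640681 to 93747207) is a periportal gene that encodes netrin-4, a basement membrane protein. In the PCB126 library it stood at 1436 CPM in arterial and portal, 519 CPM in periportal-side, 138 CPM in intermediate, 109 CPM in pericentral and 166 CPM in central vein cells. In the Control library these classes held 2029, 1004, 234, 252 and 305 CPM. In both libraries the arterial and portal level exceeded the periportal-side one, which exceeded all others, and among the central vein, intermediate and pericentral levels no neighbours in the order differed beyond counting error.

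Ntn4 was lower in the PCB126 library in every endothelial class, and no counting interval held 1. The ratio was 0.707 (0.615 to 0.813) in arterial and portal cells, which is within 1.5-fold, 0.517 (0.450 to 0.594) in periportal-side, 0.590 (0.455 to 0.768) in intermediate, 0.432 (0.321 to 0.584) in pericentral and 0.545 (0.435 to 0.679) in central vein cells. The pericentral ratio rested on 123 PCB126 and 74 Control UMIs, of which 56.8% in the Control library came from 5 cells. In cholangiocyte-like cells, at 77.1 CPM in the PCB126 library and 87.0 CPM in the Control library, the interval held 1 (0.681 to 1.16). The arterial and portal class had 28 of 29 PCB126 cells and 25 of 25 Control cells with an Ntn4 UMI, with per-cell medians of 15.2 per 10000 in the PCB126 library and 19.1 in the Control library. In periportal-side cells the medians were 2.56 in the PCB126 library and 8.83 in the Control library, and thinned shares were 33.3% (25.5 to 41.9) in the PCB126 library and 58.1% (47.4 to 68.2) in the Control library.

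Over all LSEC-like cells the Ntn4 log2 ratio was -1.37, from 648 UMIs in the PCB126 library and 647 in the Control library, while the mean over the 3 zones was -0.98. The direction was the same within each of the 4 endothelial clusters with at least 10 cells of each library: -0.62 in the arterial and portal cluster (70 PCB126 and 64 Control cells), -0.85 in the central vein cluster (63 PCB126 and 61 Control cells), -1.01 in the evenly filled LSEC cluster (54 PCB126 and 66 Control cells) and -1.20 in the LSEC cluster of 323 PCB126 and 17 Control cells. In periportal-side cells it shrank to -0.32 with at most 10% mitochondrial UMIs. In the cluster named pericentral, which held 124 PCB126 and 3 Control cells, it was 0.80. Without cells of at least 20 erythroid UMIs per 10000 it was -1.38 over LSEC-like cells.

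Efnb2 (ENSMUSG00000001300, chromosome 8, 8617434 to 8661242) encodes ephrin-B2, the arterial partner of the venous receptor EphB4. Its levels were 329 CPM in arterial and portal, 208 CPM in periportal-side, 67.2 CPM in intermediate, 15.9 CPM in pericentral and 6.48 CPM in central vein cells of the PCB126 library. Levels in the Control library were 295, 232, 22.6, 6.81 and 10.6 CPM. Arterial and portal cells exceeded central vein cells 50.8-fold (20.9 to 161) in the PCB126 library and 27.9-fold (13.4 to 67.2) in the Control library. The same gradient of Dll4 was 18.8 (7.23 to 62.1) in the PCB126 library and 38.8 (12.3 to 197) in the Control library. Between libraries, arterial and portal cells (1.12, 0.803 to 1.56) and periportal-side cells (0.897, 0.695 to 1.16) gave intervals that held 1.

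Efnb2 in intermediate cells was higher at 2.97 (1.49 to 6.73) from 81 PCB126 and 9 Control UMIs. That log2 ratio of 1.5 turned to -0.51 when zones were set without Cd36 and Adam23. Over all LSEC-like cells the ratio was 0.770 (0.617 to 0.964), a log2 ratio of -0.38. The mean log2 ratio over the 3 zones had the other sign, at 0.76. Periportal-side cells, the zone with the highest Efnb2, were 141 of 517 LSEC-like cells in the PCB126 library and 95 of 197 in the Control library. In pericentral cells Efnb2 rested on 18 PCB126 and 2 Control UMIs (2.34, 0.559 to 20.8). In cholangiocyte-like cells it rested on 25 PCB126 and 9 Control UMIs (2.06, 0.930 to 5.02), so both intervals held 1.

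Ltbp4 (ENSMUSG00000040488, chromosome 7, 27305136 to 27337692) encodes a matrix protein that holds latent TGF-beta. In the PCB126 library it stood at 939 CPM in arterial and portal, 612 CPM in periportal-side, 389 CPM in intermediate, 114 CPM in pericentral and 154 CPM in central vein cells. The Control library had 1232, 527, 93.0, 102 and 220 CPM. The intermediate level lay between the periportal-side and pericentral ones in the PCB126 library and did not differ from the pericentral one beyond counting error in the Control library. Between the libraries the intermediate ratio was 4.19 (2.99 to 6.02), from 469 PCB126 and 37 Control UMIs. That log2 ratio of 2.05 was 0.28 when zones were set without Cd36 and Adam23, so the difference depended on which markers placed the cells. Different clusters held most LSEC-like cells in the 2 libraries: beside the evenly filled one, clusters held 323 PCB126 and 17 Control cells, 124 PCB126 and 3 Control cells, and 4 PCB126 and 98 Control cells. In the evenly filled cluster Ltbp4 was 110 CPM in the PCB126 library and 148 CPM in the Control library, a log2 ratio of -0.41 with 1 inside the interval of the ratio, and in the cluster of 323 PCB126 and 17 Control cells the log2 ratio was 0.89.

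Along 5 equal steps of the pericentral share, Ltbp4 declined over the whole range in the PCB126 library, at 637, 514, 373, 262 and 92.6 CPM. In the Control library it was 561 CPM in the first step and then 140, 71.2, 99.7 and 104 CPM. Ntn4 was 566, 223, 135, 75.8 and 119 CPM over the same steps in the PCB126 library and 1103, 191, 278, 223 and 259 CPM in the Control library. The Control steps after the first held 24 to 31 cells each, against 72 to 142 cells in the PCB126 library. The steps rest on the same zonal markers, Cd36 and Adam23 among them. Leaving those out took the intermediate Ltbp4 log2 ratio from 2.05 to 0.28, so the shapes along the steps also depend on the markers. In arterial and portal cells Ltbp4 gave 0.762 (0.639 to 0.908), in central vein cells 0.700 (0.549 to 0.891), both within 1.5-fold, and in periportal-side and pericentral cells the intervals held 1. In cholangiocyte-like cells Ltbp4 was 38.9 CPM (65 UMIs) in the PCB126 library and 12.1 CPM (15 UMIs) in the Control library, a ratio of 3.21 (1.81 to 6.07) that kept its direction under each of the 14 alternatives.

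**Figure D4:**
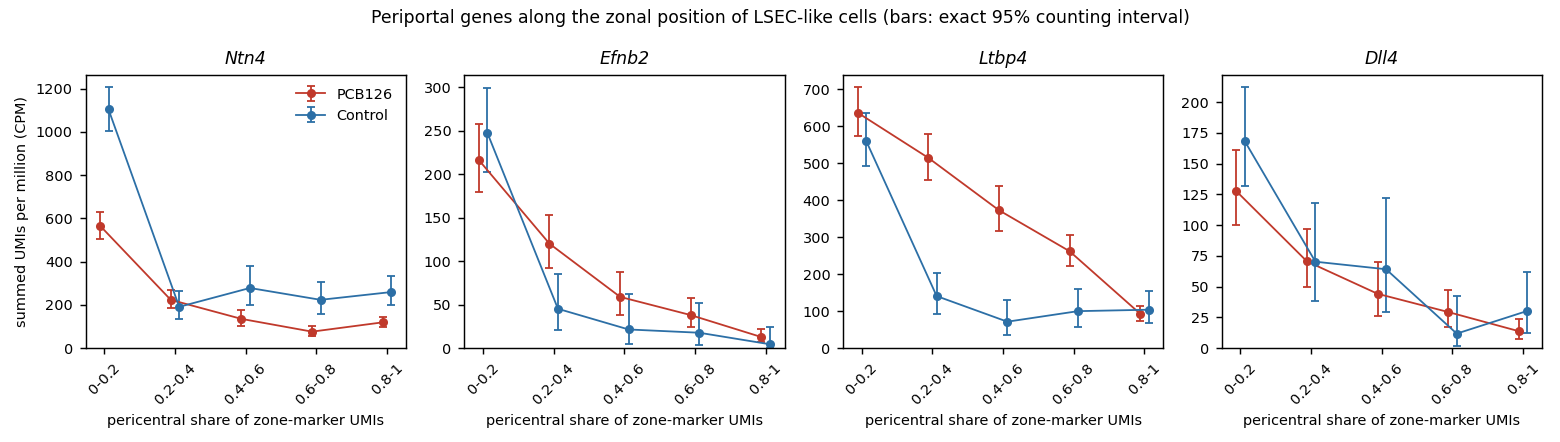
CPM (y axis, linear from 0) of Ntn4, Efnb2, Ltbp4 and Dll4 in LSEC-like cells over 5 steps of the pericentral share of zonal marker UMIs (x axis, 0 periportal to 1 pericentral). Points are the step's sum in the PCB126 library or the Control library, lines join them, and bars are exact 95% counting intervals. The zonal markers include Cd36 and Adam23, on which the intermediate ratios of Ltbp4 and Efnb2 depended. Ntn4 in the first step is 566 CPM in the PCB126 library and 1103 CPM in the Control library, while Ltbp4 in the second step is 514 CPM in the PCB126 library and 140 CPM in the Control library.

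The rest of the pathway was described with 45 further Notch genes (ligands, receptors, transferases, proteases, inhibitors, nuclear factors and targets). In arterial and portal cells 20 had at least 20 UMIs, of which 4 were higher and 5 lower in the PCB126 library (all genes 10.9% and 21.1%). In LSEC-like cells 2 of 36 were higher and 5 lower (all genes 13.4% and 12.1%). By zone, periportal-side cells gave 3 higher and 3 lower of 27 (all genes 18.7% and 12.2%). Intermediate cells gave 2 higher and 3 lower of 29 (19.0% and 13.0%), and pericentral cells 2 higher and 4 lower of 30 (14.4% and 18.9%). Central vein cells had 3 higher and 5 lower of 29 (all genes 9.62% and 14.6%), and cholangiocyte-like cells 2 higher and 3 lower of 33 (9.75% and 6.83%). The median log2 ratio of the 45-gene list lay between -0.36 in arterial and portal cells and 0.01 in pericentral cells.

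The genes named next passed the 1.5-fold rule, which takes no account of counting error. Among nuclear factors, Rbpj passed this rule as lower in arterial and portal cells (PCB126 36.6 and Control 70.5 CPM), intermediate cells (PCB126 43.2 and Control 67.9 CPM) and central vein cells (PCB126 38.9 and Control 62.0 CPM). It passed as higher in periportal-side cells (PCB126 44.8 and Control 27.2 CPM). No counting intervals are given for Rbpj, so no difference beyond counting error is claimed for it in these classes. Psen2, a catalytic subunit of gamma-secretase, was lower in central vein cells at 88.2 CPM in the PCB126 library and 206 CPM in the Control library, and in arterial and portal cells at 191 CPM in the PCB126 library and 344 CPM in the Control library. Nrarp, a feedback inhibitor that Notch induces, was higher in arterial and portal cells, with 138 CPM in the PCB126 library and 62.2 CPM in the Control library, beside the lower Hes1 of that class. The ligand Dll1 (PCB126 71.3 and Control 39.6 CPM) and Lfng, which glycosylates Notch (PCB126 126 and Control 73.9 CPM), were higher in central vein cells, where Notch1 was higher as well. Id1 was higher in intermediate (PCB126 83.0 and Control 30.2 CPM) and central vein cells (PCB126 187 and Control 84.4 CPM), opposite to cholangiocyte-like cells.

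Of 9 partners of the periportal members, Unc5b, a netrin receptor gene, had 64 UMIs in LSEC-like cells of the PCB126 library and 2 in those of the Control library, at 21.1 CPM and 1.71 CPM, a ratio of 12.4 (3.29 to 104). Ephb4, the receptor of ephrin-B2, was higher in pericentral cells at 280 CPM in the PCB126 library and 167 CPM in the Control library. Efnb1 was higher in intermediate, pericentral and central vein cells, but it is one of the zonal markers and is given no further value.

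Likeness was taken over 14 points, 7 classes in each of 2 libraries. The 7 were arterial and portal, periportal-side, intermediate, pericentral, central vein, cholangiocyte-like and leukocyte-like cells. The genes whose log2(CPM + 10) was most like that of Ntn4 among 9090 genes were Abcg2 (Pearson r 0.976), Insr (0.969), Glul (0.938), Epn2 (0.934) and Tspan7 (0.933). Those most like Dll4 were Ldb2 (0.949), Cd36 (0.937), Hmcn1 (0.936), Efnb2 (0.925) and Meis1 (0.918). Among those most like Sox9 were Tm4sf4, Wwc1, Fxyd1 and Zfhx4, each at 0.998 or 0.999, a pattern of 1 class against all others. The points share libraries, the zones divide the LSEC-like cells, and Cd36 and Tm4sf4 are gate markers, so these values are a description.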

How the data were processed

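The 2 libraries analysed were PCB126 and Control. The deposited files give whole-number UMI counts for each gene in each barcode, not normalized by the authors. The gene and barcode lists deposited with them hold identifiers only, a content other than measured values. Cell Ranger 6.0.0 wrote the matrices per the file headers, whereas Cell Ranger 6.1.1 and Seurat 4.0.1 appear in the submitters' processing notes, and neither a build nor an annotation is stated in them. Positions come from GENCODE M21 (GRCm38), in which 34049 of the 34244 gene identifiers and all 10 members were found.

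The PCB126 matrix held 4307 barcodes and 16269562 UMIs and the Control matrix 8550 barcodes and 24134912 UMIs. Barcodes with at least 500 UMIs, 250 genes and at most 20% mitochondrial UMIs were kept, and the barcodes with the highest Scrublet scores, 11 in the PCB126 library and 28 in the Control library, were left out at 0.8% per 1000 barcodes. Scrublet's own threshold called 4 PCB126 and 10 Control barcodes.

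Classes were set by marker UMIs per 10000: endothelial at least 20 with leukocyte and cholangiocyte markers under 20; within it, arterial and portal (own list at least 25, pericentral list under 20, LSEC list under 90), central vein (own list at least 50, pericentral list at least 20, LSEC list under 90) and LSEC (at least 40). LSEC-like cells were pericentral at a pericentral share of at least 0.75 of zonal marker UMIs and periportal-side at 0.25 or less. Cholangiocyte-like cells needed 30, with endothelial and leukocyte markers under 20, and leukocyte-like cells 50, with endothelial markers under 10. Gate thresholds and the immediate early list were set after the marker distributions and first results were seen, and the members and gene lists were chosen with earlier results of these data known.

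Class sums of UMIs were taken in each library and scaled to CPM. Ratios are PCB126 over Control with exact conditional binomial 95% intervals, shares have exact Clopper-Pearson intervals, and log2 ratios add 0.5 counts to each sum. The ratio intervals were tested on simulated Poisson counts, which leave out any clumping of UMIs by cell. Intervals of shares were not simulated. A share of 0 allows up to 3 counts of the total. All members were described in every class, and other pathway genes where they had at least 20 UMIs and passed 1.5-fold; likeness used genes with at least 200 UMIs, and some genes that these rules select are not reported here. Alternatives changed the mitochondrial, UMI, doublet and gene filters, scaling, thinning, ambient RNA, cell weighting, clusters in place of gates, gate strictness, and, added after seeing the data, zonal markers and cells rich in erythroid or hepatocyte UMIs. Python 3.11.15, scanpy 1.11.5, numpy 2.4.6, scipy 1.17.1, pandas 2.3.3, leidenalg 0.10.2, igraph 0.11.9 and matplotlib 3.10.9 were used.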

Additional observations from a re-analysis of the deposited data

Results flagged for a closer look

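Jag1 differed in opposite directions between classes of the same 2 libraries. It was higher in the PCB126 library in cholangiocyte-like cells, with a log2 ratio of 0.69, and lower in arterial and portal endothelial-like cells, at -0.69, and in pericentral LSEC-like cells, at -1.66. With 1 library per group the difference between the classes was not tested. The pericentral value rested on 16 UMIs in the PCB126 library and 13 in the Control library.

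Hes1 was likewise higher in the PCB126 library in intermediate LSEC-like cells, with a log2 ratio of 1.34, and lower in arterial and portal endothelial-like cells, at -0.82, and in cholangiocyte-like cells, at -1.69. The difference between these classes was not tested either. The cholangiocyte-like value kept its size under the alternatives better than the endothelial ones, with a range of -1.99 to -1.60, against 0.02 to 1.62 in intermediate and -0.92 to -0.12 in arterial and portal cells.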

How the results depend on the processing

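Of 720 log2 ratios recomputed for 52 pairs of member and class under 14 settings, 658 stayed within the counting interval of the reported value, 58 left it and 4 changed sign from a value past 1.5-fold. Thinning each cell to 1000 UMIs, which leaves few UMIs per class, accounted for the most moves. The reversals were Efnb2 in intermediate cells at -0.51 with zones set without Cd36 and Adam23, Efnb2 in cholangiocyte-like cells at -0.36 in thinned cells, and Efnb2 (-0.77) and Ntn4 (0.80) in pericentral cells with classes from clusters, where that class held 3 Control cells. Ntn4 in LSEC-like cells, reported at -1.37, was -0.96 with at most 10% mitochondrial UMIs, -1.57 thinned and -1.19 by clusters. Hes1 in LSEC-like cells, reported at 0.37, was 0.057 thinned and -0.14 by clusters. Hes1 in cholangiocyte-like cells was -1.86 thinned, -1.99 with each cell weighed equally and -1.96 without cells of at least 60 hepatocyte UMIs per 10000, a setting under which Sox9 there was -0.12; a limit of 20 would have left 2 PCB126 cells and 1 Control cell. Thinning also lowered the count of member and class pairs past 1.5-fold to 14, from 22, with LSEC-like cells counted as a whole and by zone; requiring 50 UMIs kept the count within 1.5 times. The cause of these shifts was not tested. Clusters gave no periportal-side class, so that alternative has no value there. No paired analysis was possible because each group has 1 library. Depth limits Hey1, Notch4 outside LSEC-like cells and Dll4 outside the periportal side most.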
